A study of Mus musculus with 24 samples.

Results

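The genes described here encode the subunits and assembly chaperones of the constitutive proteasome. They were taken by symbol: genes whose symbol begins with Psma, Psmb, Psmc or Psmd followed by a digit, on probe sets that carry a single symbol in the platform annotation, without the immunoproteasome genes Psmb8, Psmb9 and Psmb10. This gave 36 of 12393 named genes, with 65 of 22626 probe sets, and each gene is shown by the brightest of its probe sets, averaged over the 24 arrays. Of the 36, 35 encode proteasome subunits or chaperones of the cap. The other, Psmc3ip, encodes a partner of meiotic recombinases, matches by symbol alone and is described separately where it differs. The 35 comprise 8 genes of the alpha ring (Psma1 to Psma8), 3 catalytic and 4 other genes of the beta ring, 6 ATPases and 3 other proteins of the cap base, 8 proteins of the cap lid and 3 cap assembly chaperones.

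The study measured messenger RNA of C57BL/6 mouse blood progenitors on 24 Affymetrix arrays in 7 groups. Granulocyte monocyte progenitors (GMP) were transduced with MOZ-TIF2 (MT2, 4 arrays), NUP98-HOXA9 (NHA9, 3 arrays), AML1-ETO (AE, 4 arrays) or an empty vector with GFP (GFP, 3 arrays), and GFP-positive cells were lysed 36 hours after spin infection. The sorted, untransduced groups were cells of the LSK phenotype, titled HSC (LSK, 3 arrays), and normal GMP (4 arrays), beside leukemic stem cells with the GMP surface phenotype from MOZ-TIF2 leukemia (L-GMP, 3 arrays). MOZ-TIF2, NUP98-HOXA9 and AML1-ETO are fusion proteins of acute myeloid leukemia. All 4 transduced groups share the retroviral infection, the culture and the GFP sort, and nothing in the labels tells if replicates came from different animals or infections, so p-values measure only the spread between these samples, possibly technical.

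The proteasome degrades proteins marked with ubiquitin. Its core is a barrel of stacked rings, the outer ones of alpha and the inner ones of beta subunits, and the beta subunits Psmb5, Psmb6 and Psmb7 carry the chymotrypsin-like, caspase-like and trypsin-like activities that cut peptides. The cap binds ubiquitin, removes it through the lid subunit Psmd14, unfolds the substrate with a ring of ATPases and threads it into the core. When proteasome activity falls short, the transcription factor Nrf1, encoded by Nfe2l1, is known to raise the subunit genes together through antioxidant response elements, and proteasome inhibitors that bind Psmb5 are used against blood cancers.

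RefSeq promoters (250 bases before to 50 after the start site, build GRCm38.p6) were matched for 29 of the 36 genes, with 31 promoters. The core of the antioxidant response element, searched as TGACNNNGC on both strands, occurred in 5 of the 31 promoters (16.1%), against 12.4% of 32851 promoters in the table. These 5 belonged to Psmb5, Psmb6, Psmc6, Psmd9 and Psmd12. The CCAAT box, searched as CCAAT on both strands, occurred in 12 of 31 (38.7%), against 37.4% of all. Both shares were thus close to those of all promoters. The 3 sequences below belong to subunits that passed a test between groups, and each is written 5′ to 3′ on the gene's strand with motif matches in capitals.
Psmb5 promoter, chr14:54617946-54618245, minus strand: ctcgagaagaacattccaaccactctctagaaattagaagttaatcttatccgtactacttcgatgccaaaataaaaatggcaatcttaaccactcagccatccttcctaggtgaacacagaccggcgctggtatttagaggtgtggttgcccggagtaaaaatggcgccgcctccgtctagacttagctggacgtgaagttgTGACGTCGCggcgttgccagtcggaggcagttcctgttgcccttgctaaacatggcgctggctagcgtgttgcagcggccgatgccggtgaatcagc
Psmd14 promoter, chr2:61711444-61711743, plus strand: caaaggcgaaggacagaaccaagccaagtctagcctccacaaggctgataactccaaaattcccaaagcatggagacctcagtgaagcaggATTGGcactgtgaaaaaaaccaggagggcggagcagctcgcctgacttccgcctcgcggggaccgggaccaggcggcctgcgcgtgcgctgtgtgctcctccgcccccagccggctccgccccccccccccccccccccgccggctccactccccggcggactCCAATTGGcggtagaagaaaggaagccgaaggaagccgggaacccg
Psmd8 promoter, chr7:29180624-29180923, minus strand: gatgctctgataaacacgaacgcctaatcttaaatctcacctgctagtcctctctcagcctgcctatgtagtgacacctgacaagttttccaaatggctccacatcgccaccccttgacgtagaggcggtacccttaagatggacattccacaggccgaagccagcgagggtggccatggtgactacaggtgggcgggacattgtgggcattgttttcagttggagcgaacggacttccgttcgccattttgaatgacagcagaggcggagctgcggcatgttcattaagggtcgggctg
The Psmb5 promoter holds 1 match to TGACNNNGC, at position -47 from the start site. In the Psmd14 promoter 3 CCAAT matches lie on either strand, of which 2 overlap each other. The Psmd8 promoter holds no match to either motif. Psmd7 also passed a test and is named only.

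Most of the proteasome genes were detected on every array. Values are log2 expression estimates, and a linear value of 60 (5.91 on the log2 scale) was used as the limit of detection. Of the 36 genes, 34 were above it on all 24 arrays. Psmd7, a lid subunit that partners Psmd14, was above it on 23, with the value 5.77 on GMP 2. Psma8, the testis-type alpha subunit, was above it on 1 array. The 3 L-GMP arrays had 5.40, 5.87 and 6.09 for Psma8, against 4.32, 4.16, 4.75 and 5.46 in GMP. Psma8 therefore entered no test, and 35 genes were tested in every comparison.

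The highest and lowest group means of a gene differed by a median of 0.52 on the log2 scale over the 36 genes, beside 0.80 over all tested probe sets. The smallest such range was 0.27, for the lid subunit Psmd6. Ranges of at least 1 occurred in 4 genes: Psma8 (1.90), Psmd8 (1.49), Psmc3ip (1.36) and Psmd9 (1.07). By role, the median range was 0.48 in the alpha ring, 0.77 in the 3 catalytic subunits, 0.47 in the other beta subunits, 0.45 in the ATPases and 0.59 in the lid. MT2 had the highest mean for 18 of the 36 genes and L-GMP for 12, while LSK had the lowest mean for 19 and AE for 8. These orders are descriptions, since neighbouring groups often lay within each other's spread.

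**Figure D1:**
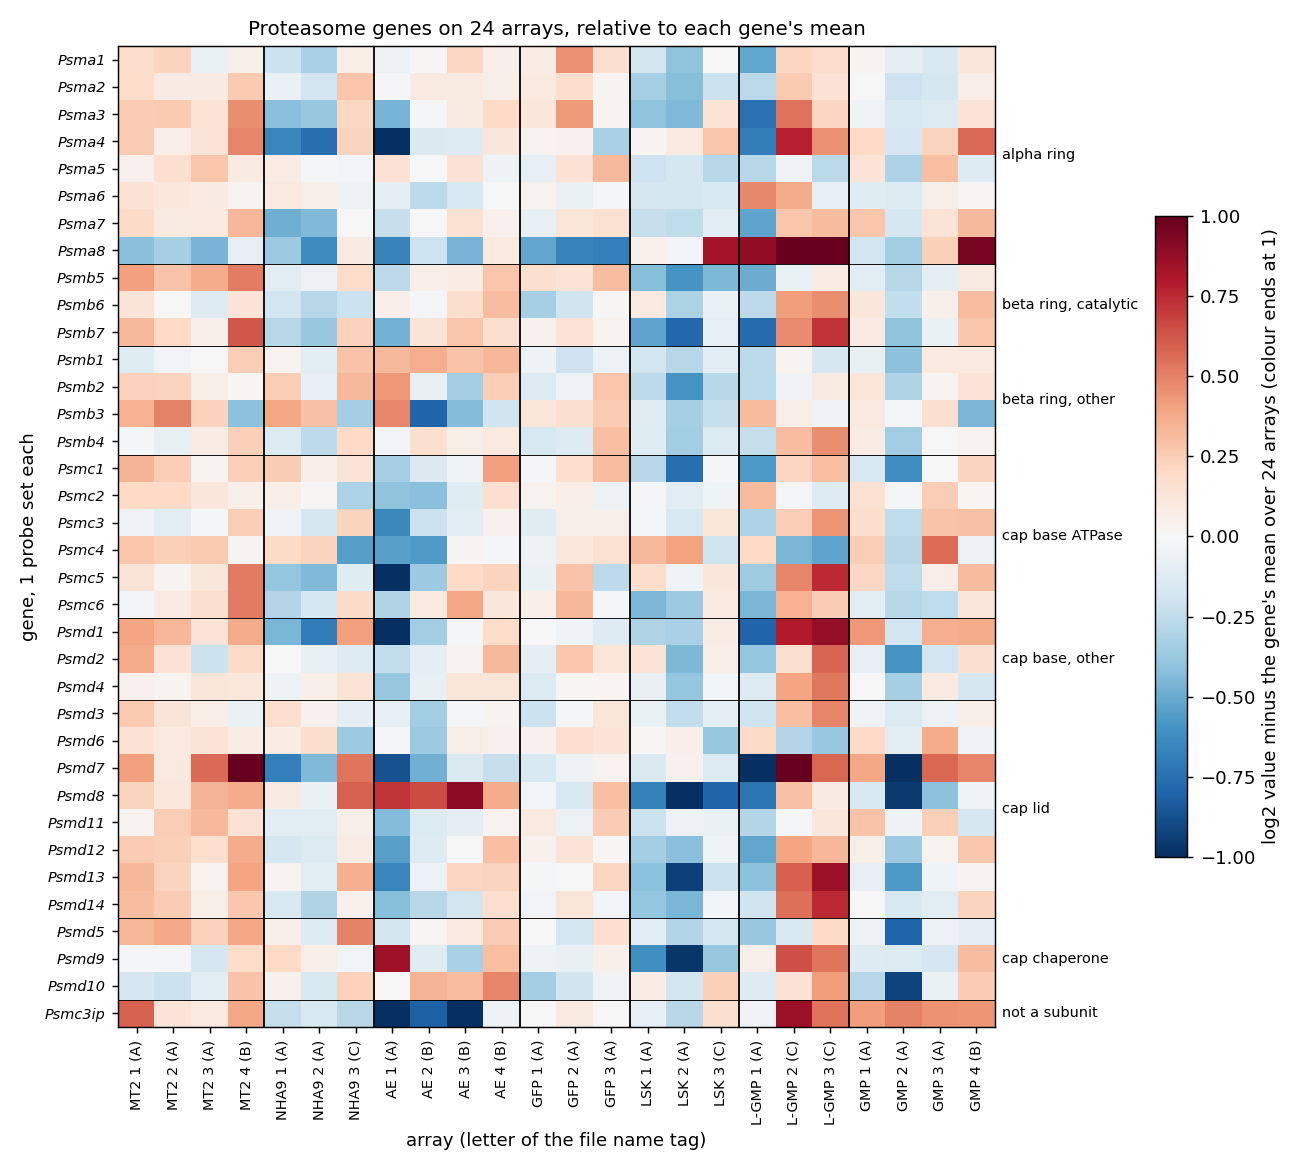
Heat map of the proteasome genes (rows, by role) on the 24 arrays (columns, by group in the order MT2, NHA9, AE, GFP, LSK, L-GMP and GMP). Colour is the log2 value minus the gene's mean over all 24 arrays, with colour ends at 1 in both directions. LSK columns are mostly below and MT2 columns mostly above each gene's mean, and GMP 2 and L-GMP 1 stand below the other arrays of their groups.

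Some arrays stood apart from the others in the level of these genes. The average of the 34 genes over 60 on all arrays was 9.70 on GMP 2, against 10.04 to 10.10 on the other GMP arrays, and GMP 2 was the lowest array of its group for 31 of 36 genes. L-GMP 1 had an average of 9.70, against 10.25 and 10.27 on the other L-GMP arrays, and was also the lowest of its group for 31 genes. LSK 2 had the lowest average of all 24 arrays, 9.63, and was the lowest of its group for 29 genes. AE 1 had 9.73 and was the lowest of its group for 23. Differences between 3′ and 5′ control probe sets, a measure of RNA degradation and of amplification length, were highest of all 24 arrays on L-GMP 1 (4.82 for Gapdh and 3.45 for actin). On GMP 2 they were 4.33 and 2.95, within overall ranges of 2.50 to 4.82 for Gapdh and 2.35 to 3.45 for actin. LSK 3 (4.51 and 2.87) and AE 4 (4.07 and 3.05) had the largest differences of their groups. These 2 arrays also had the highest averages of their groups (9.89 and 10.14). The part of the 3′ to 5′ differences in the results was not tested.

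The array names in the labels end in 1 of 2 different suffixes (called tag A, 15 arrays, and tag B, 5 arrays) or in none (tag C, 4 arrays), and the labels do not say what the suffixes stand for. Tag A covers all 3 GFP arrays, MT2 1 to 3, NHA9 1 and 2, AE 1, LSK 1 and 2, L-GMP 1 and GMP 1 to 3. Tag B covers MT2 4, AE 2 to 4 and GMP 4, and tag C covers NHA9 3, LSK 3 and L-GMP 2 and 3. In all 6 groups that hold tag A and another tag, every array of the other tag had a higher average of the proteasome genes than every tag A array. Each comparison below is therefore also given where it moved with the tag or with GMP 2, L-GMP 1 or AE 1.

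The labelled cell types were checked against their markers. All 8 GMP markers (among them Mpo, Elane and Cebpa) had group means over 60 in every group. LSK is included, so this count does not set GMP apart. Fcgr3, another of the 8, was under 60 on L-GMP 3 (5.58), with 9.11 and 7.58 on L-GMP 1 and 2. Of 7 measured LSK markers, 5 were over 60 in LSK (array means of the list 8.31 to 8.55, against 5.53 to 6.49 in the other groups), and Slamf1 and Mecom were under 60 there. Maturing neutrophil markers had array means of 8.83 to 9.91 in MT2, 10.36 to 10.72 in NHA9, 10.26 to 10.99 in AE and 10.33 to 10.56 in GFP. In L-GMP they ran from 7.34 to 11.63, against 9.95 to 10.83 in GMP and 9.57 to 10.61 in LSK. At most 1 of 5 lymphoid markers was over 60 in any group.

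**Figure D2:**
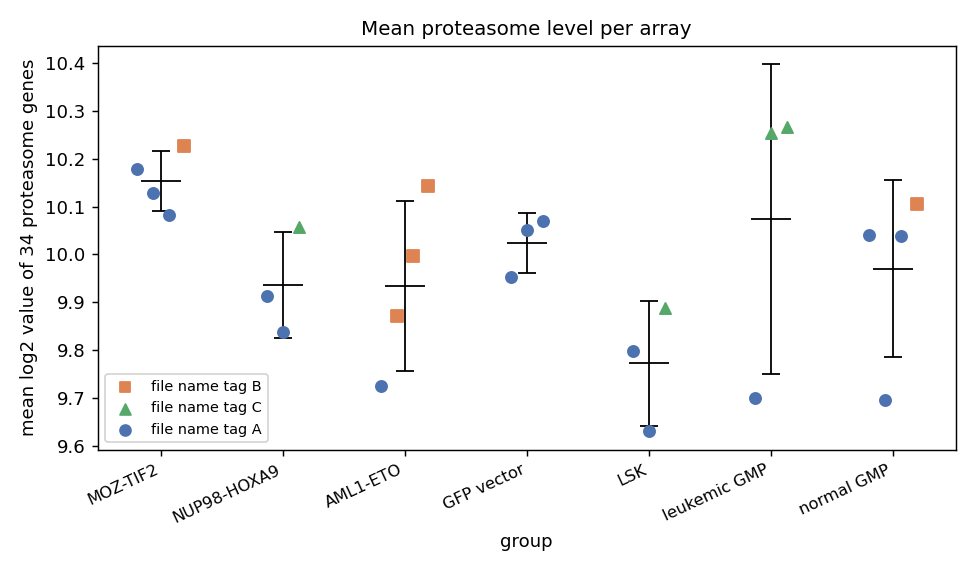
Average log2 value of the 34 proteasome genes over 60 on all arrays, 1 point per array, with bars for the group mean and SD. MT2 arrays lie between 10.08 and 10.23 and LSK arrays between 9.63 and 9.89, and GMP 2 and L-GMP 1 lie below the rest of their groups.

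The first question of the design was whether the 3 oncogenes together shifted the transcriptome of GMP away from GFP cells. No proteasome gene passed the test: with all 11 oncogene arrays against the 3 GFP arrays, 0 of 35 passed (limma, adjusted p under 0.05), and the share of the 11632 tested probe sets that passed was also 0%. The 11 arrays formed 1 class, so differences between the oncogenes counted as spread. The fit over all 24 arrays, with a mean per group, called 0 of the 35 and 0.438% of probe sets. At an unadjusted p under 0.05 stood 0 of the 35 genes and 1250 probe sets (10.7%), and the methods' t-test called 0 of the 35 and 0.997% of probe sets. The median log2 difference was -0.04 over the proteasome genes and 0.08 over all probe sets, and for 34 of 35 genes the 95% interval lay within 2-fold in both directions. Several probe sets were tested for 14 genes, and within 8 of these the signs differed. In bulk RNA, fewer cells of a type and less RNA per cell cannot be told apart. Psmd8, a structural lid subunit, had the smallest adjusted p with a difference of 0.35 (SE 0.18, limma adjusted p = 0.491). Psmb5, the main target of proteasome inhibitors, differed by -0.04 (SE 0.15, limma adjusted p = 0.933), Psmb6 by 0.17 and Psmb7 by 0.01. All ATPases lay between -0.11 and -0.04.

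In MT2 cells nearly all proteasome genes were slightly above GFP, but none passed. The difference was positive for 33 of 35 genes with a median of 0.13, beside 0.07 over all 11113 probe sets. This count uses the brightest probe set of each gene. Within 6 of the 14 genes with several tested probe sets, the signs differed, and 1 of 17 other probe sets passed. Of the 35 genes 0 passed, against 11.8% of probe sets (limma), with 3 genes at an unadjusted p under 0.05, beside 29.8% of probe sets, and 0 by the methods' t-test. All 35 intervals lay within 2-fold. Medians by role ran from 0.08 for the noncatalytic beta subunits to 0.20 for the catalytic ones. Psmd1, a scaffold of the cap base, had 9.55, 9.50, 9.30 and 9.53 in MT2, against 9.16, 9.13 and 9.04 in GFP. All MT2 arrays were higher, by 0.36 on average (SE 0.11, limma adjusted p = 0.0598). Psmd7 differed by 0.58 (SE 0.19, limma adjusted p = 0.0712), with 7.64, 7.32, 7.79 and 8.23 in MT2, against 7.07, 7.18 and 7.26 in GFP. The chaperone Psmd5 differed by 0.33 (SE 0.12, limma adjusted p = 0.0886). Of the catalytic subunits, Psmb5 differed by 0.19, Psmb6 by 0.20 and Psmb7 by 0.23, with limma adjusted p of 0.259, 0.300 and 0.310. Maturing neutrophil markers, 7 of 8 over 60 in both groups with Cd177 under it, had lower array means in MT2 than in GFP, as given above, and their part was not tested.

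In NHA9 cells the balance lay on the other side of GFP. Of 35 genes, 24 were lower, with a median of -0.11 beside 0.05 over all probe sets, and all 35 intervals lay within 2-fold. Signs differed between probe sets within 7 of the 14 genes with several tested. None passed, with 0 of 35 genes beside 0.200% of 10981 probe sets (limma), 1 gene at an unadjusted p under 0.05, beside 10.5% of probe sets, and 0 by the methods' t-test. The alpha ring had the lowest median (-0.31 over 7 genes). Psma1 had 10.39, 10.27 and 10.66 in NHA9, against 10.68, 11.06 and 10.76 in GFP. Its difference of -0.39 had a limma adjusted p of 0.456, although all NHA9 arrays were lower. Psma7 differed by -0.38 (limma adjusted p = 0.485), and Psmc3ip by -0.25 (limma adjusted p = 0.515). Psmb5 differed by -0.20, Psmb6 by -0.06 and Psmb7 by -0.21, none past the threshold (limma adjusted p of 0.622, 0.892 and 0.668). NHA9 3 carries tag C, which no GFP array does. Among tag A arrays, with NHA9 1 and 2, the differences were -0.50 for Psma1, -0.53 for Psma7 and -0.23 for Psmc3ip. For Psmb5, Psmb6 and Psmb7 they were -0.29, -0.07 and -0.40.

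In AE cells 1 proteasome gene rose above GFP, the lid subunit Psmd8. Its values were 9.75, 9.68, 9.93 and 9.40 in AE, against 9.00, 8.87 and 9.33 in GFP. Every AE array was above every GFP array, and the means were 9.69 ± 0.22 (SD, n = 4) in AE and 9.07 ± 0.24 (SD, n = 3) in GFP. The difference of 0.62 (SE 0.17), or 1.54-fold, had a limma adjusted p of 0.0488, and it was past the threshold in 5 of 18 other settings, with differences of 0.49 to 0.75 and adjusted p of 0.0337 to 0.220. Psmd8 passed without AE 1 or AE 4 but not without AE 2, AE 3 or any GFP array. With quantile normalization 1 gene passed, but it was Psmc3ip, lower in AE, and not Psmd8. The fit over all 24 arrays called Psmb1 higher and Psmc3ip lower, without Psmd8. Psmd8 was thus a borderline call in the direction opposite to the other lid subunits.

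Of 35 genes in AE, 27 were lower than in GFP, with a median of -0.13 beside 0.08 over all probe sets. Signs differed between probe sets within 6 of the 14 genes with several tested. The 1 call compares with 11.0% of 11393 probe sets called (limma), and 4 of the 35 genes had an unadjusted p under 0.05, beside 28.4% of probe sets. With AE 1 included, all 7 alpha subunits tested, all 6 ATPases and 7 of 8 lid subunits (all but Psmd8) had negative differences, with role medians of -0.11, -0.22 and -0.17. The 3 chaperones had a median of 0.20, with Psmd10, also known as the oncoprotein gankyrin, at 0.48 (SE 0.16, limma adjusted p = 0.0834). Psmb1, a noncatalytic beta subunit, had 10.37, 10.42, 10.34 and 10.39 in AE, against 10.00, 9.85 and 10.00 in GFP, a difference of 0.43 (SE 0.13, limma adjusted p = 0.0567). Psmc3ip, the recombination gene, differed by -0.93 (SE 0.30, limma adjusted p = 0.0732). The catalytic Psmb5, Psmb6 and Psmb7 differed by -0.16, 0.31 and -0.05, with limma adjusted p of 0.533, 0.210 and 0.894.

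The AE result depended on the tag and on AE 1. Among tag A arrays alone, which leaves AE 1 against the 3 GFP arrays and assumes that AE 1 varies like them, 9 genes passed (1 higher and 8 lower), beside 17.1% of probe sets. The ATPase Psmc5 was then at -1.31 and Psmd1 at -1.37. Without AE 1, 4 genes passed (Psmb1, Psmd8 and Psmd10 higher, Psmb3 lower), beside 27.0% of probe sets. The median over the tested genes was then -0.02. Among the alpha subunits, ATPases and lid subunits that were lower with AE 1, Psma4, Psmc5, Psmc6 and Psmd13 then lay above GFP. The rest of these stayed below GFP. No GFP array carries tag B, and AE 2 to 4 and GFP therefore cannot be told apart from their tags.

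**Figure D3:**
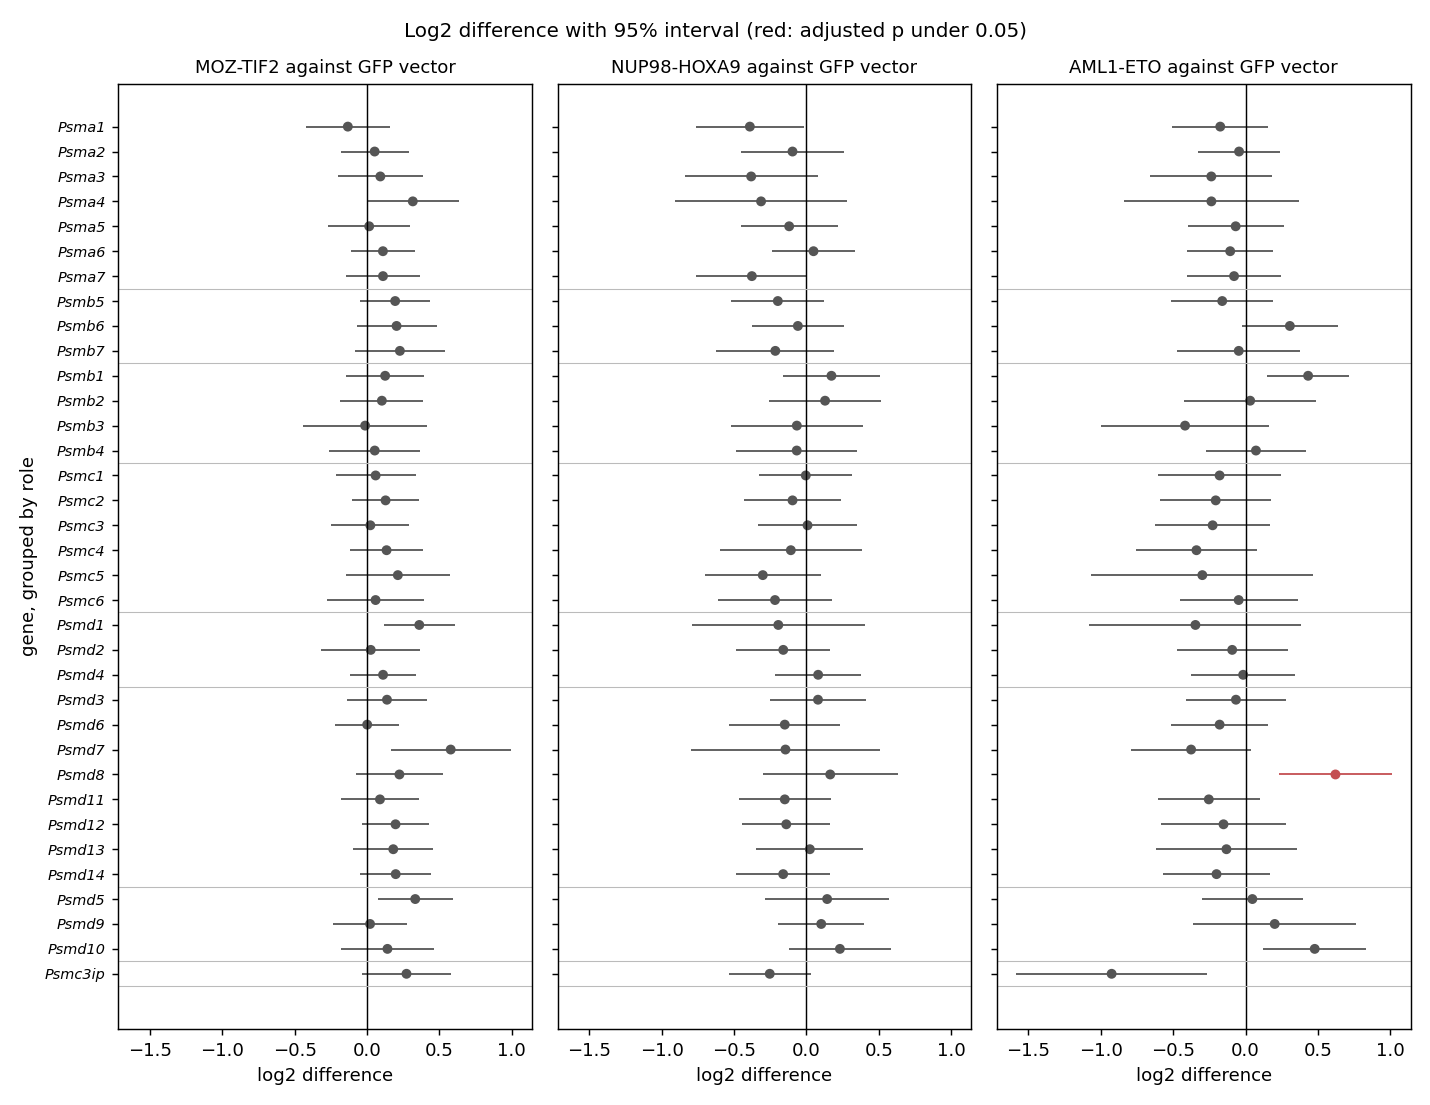
Log2 differences of each proteasome gene from GFP in MT2, NHA9 and AE, with 95% intervals from limma, where positive values are higher in the oncogene group. Red marks an adjusted p under 0.05, which only Psmd8 in AE reached (0.62), and most points lie above 0 in MT2 and below 0 in AE.

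The comparisons with GFP share the same 3 GFP arrays, so differences between oncogenes were tested directly in a fit over the 14 transduced arrays. Of these, MT2 against AE had the most calls. MT2 was higher than AE for 29 of 35 genes, with a median of 0.24 beside -0.01 over all probe sets, and 4 genes passed, all higher in MT2, beside 28.5% of 11411 probe sets called (limma). The share of proteasome genes called, 4 of 35, was thus below the background. Among the 14 genes with several tested probe sets, signs differed within 3, and 5 of 17 other probe sets passed. Unadjusted, 14 of the 35 had a p under 0.05, a share near the 39.7% of probe sets, while the methods' t-test with adjustment called 0 of the 35 and 8.42% of probe sets.

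The 3 subunits among the 4 were the catalytic Psmb5 and the lid partners Psmd7 and Psmd14. Psmd7 had 7.64, 7.32, 7.79 and 8.23 in MT2, against 6.36, 6.74, 7.08 and 6.99 in AE. All MT2 arrays were higher, with means of 7.75 ± 0.38 in MT2 and 6.79 ± 0.32 in AE (SD, n = 4 each). The difference was 0.95 (SE 0.25, 1.94-fold, limma adjusted p = 0.0104), and a second probe set of Psmd7 also passed with 0.50 (limma adjusted p = 0.0177).

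Psmd14, the deubiquitinase of the lid, had 11.49, 11.43, 11.24 and 11.45 in MT2, against 10.76, 10.90, 10.99 and 11.35 in AE. The groups overlapped through AE 4, and the difference was 0.40 (SE 0.13, 1.32-fold, limma adjusted p = 0.0367). Psmb5 had 11.43, 11.30, 11.39 and 11.53 in MT2, against 10.75, 11.08, 11.09 and 11.29 in AE. Here the groups did not overlap, and the difference was 0.36 (SE 0.13, 1.28-fold, limma adjusted p = 0.0473). The other catalytic subunits did not pass, with Psmb6 at -0.10 (limma adjusted p = 0.562) and Psmb7 at 0.27 (limma adjusted p = 0.285). Psmd8, higher in AE than in GFP, differed by -0.40 (limma adjusted p = 0.0795).

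The fourth gene was Psmc3ip, which had 8.11, 7.65, 7.62 and 7.91 in MT2, against 6.36, 6.70, 5.97 and 7.47 in AE. All MT2 arrays were higher, by 1.20 on average (SE 0.23, 2.29-fold, limma adjusted p = 0.00179). Psmc3ip passed in 24 of 25 other settings (differences of 0.98 to 1.48) and Psmd7 in 23 of 25 (0.52 to 1.27). Psmd14 passed in 16 and Psmb5 in 10 of the 25, and both missed the threshold without any 1 of MT2 1, MT2 2, MT2 4, AE 1, AE 2 or AE 3. Psmb5 also missed it without MT2 3, NHA9 1, NHA9 2 or any GFP array. Without AE 4, 11 genes passed (10 higher and 1 lower in MT2), beside 29.5% of probe sets. Without NHA9 3, which enters through the shared spread, 8 passed (6 higher and 2 lower), beside 31.5%.

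Maturing neutrophil markers, 7 of 8 over 60 in MT2 and 8 of 8 in AE, moved with this comparison at the levels given above, and their part was not tested. MT2 and AE hold different shares of the tags, so the difference was also read within each. Among tag A arrays (MT2 1 to 3 against AE 1) MT2 was higher for 28 of 35 genes with a median of 0.44, and among tag B arrays (MT2 4 against AE 2 to 4) for 30 of 35 with a median of 0.21. For Psmd7 the difference was 1.23 within tag A and 1.30 within tag B, and for Psmc3ip it was 1.44 and 1.20. For Psmb5 it was 0.62 and 0.37, and for Psmd14 0.63 and 0.37. All 4 genes were thus higher in MT2 within both tags. Each of these readings has a single array on 1 side and no value over all probe sets beside it. They therefore do not test the part of the tag. With tag as a factor 17 of 35 genes passed, beside 38.9% of probe sets, and among tag A arrays alone 19 passed, beside 34.7%, a count that rests on the single array AE 1.

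MT2 was higher than NHA9 for 31 of 35 genes, with a median of 0.19 beside 0.02 over all probe sets, but 0 genes passed, against 7.52% of 11171 probe sets (limma). Unadjusted, 7 genes had a p under 0.05, beside 23.9% of probe sets, and the methods' t-test called 0. Psma7 had 10.09, 9.99, 10.00 and 10.23 in MT2, against 9.41, 9.46 and 9.91 in NHA9, a difference of 0.49 (SE 0.14, limma adjusted p = 0.0519). Psmb5 differed by 0.39 (limma adjusted p = 0.0962), Psmb6 by 0.26 (0.219), Psmb7 by 0.44 (0.185) and Psmd7 by 0.72 (0.117). The tag C array NHA9 3 was the NHA9 array closest to MT2. Without it 4 genes passed, beside 9.79% of probe sets, and among tag A arrays 10 passed, beside 19.2% of probe sets, with MT2 1 to 3 set against NHA9 1 and 2.

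NHA9 and AE were close, with 18 genes higher and 17 lower, a median of 0.01 and 0 of 35 past the threshold, beside 7.23% of 11377 probe sets (limma). Unadjusted, 3 genes had a p under 0.05, beside 21.6% of probe sets, and the methods' t-test called 0. The smallest adjusted p were those of Psmb6 at -0.36 (SE 0.13, limma adjusted p = 0.099), Psmc3ip at 0.67 (limma adjusted p = 0.130) and Psmd8 at -0.46 (limma adjusted p = 0.135). Psmb5 and Psmb7 differed by -0.03 and -0.17. Among tag A arrays 6 genes passed, beside 9.62% of probe sets, again with AE 1 as the single AE array.

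**Figure D4:**
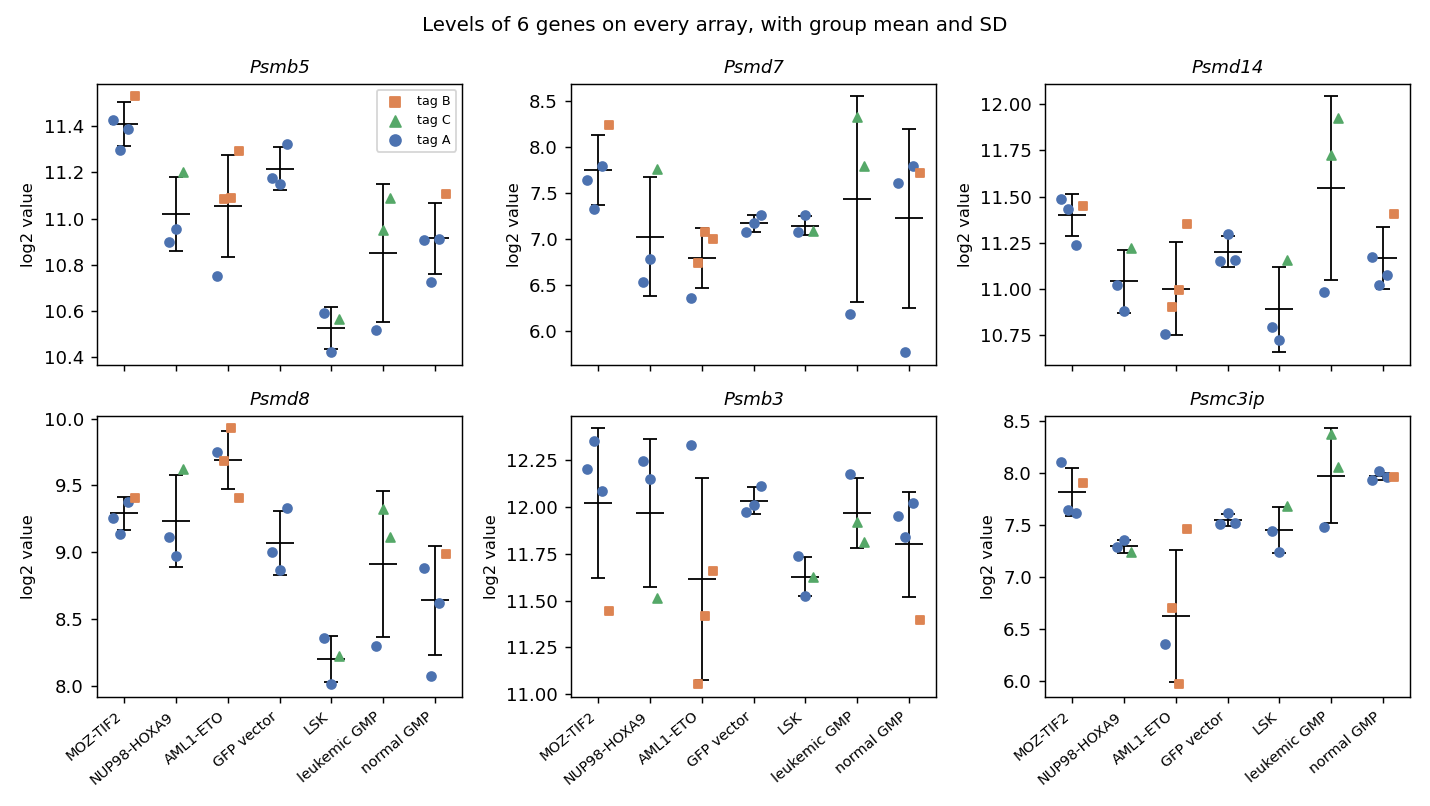
Log2 values on every array of Psmb5, Psmd7, Psmd14, Psmd8, Psmb3 and Psmc3ip by group, with marker shapes for the tags and bars for the group mean and SD. Psmd8 is highest in AE (9.40 to 9.93) and lowest in LSK (8.02 to 8.36), and Psmc3ip is lowest in AE (5.97 to 7.47).

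LSK cells, which hold the stem cells upstream of GMP, had slightly less signal for most proteasome genes than GMP. Of 35 genes, 30 were lower, with a median of -0.17 beside 0.06 over all probe sets. All 7 tested alpha, all 7 beta and all 8 lid genes were among them. Signs differed between probe sets within 5 of the 14 genes with several tested. None passed: 0 of 35, beside 15.1% of 11452 probe sets called (limma), with 3 genes at an unadjusted p under 0.05, beside 29.1% of probe sets, and 0 by the methods' t-test. Psmb5 had 10.59, 10.42 and 10.56 in LSK, against 10.91, 10.73, 10.91 and 11.11 in GMP. All LSK arrays were lower, with a difference of -0.39 (SE 0.15, limma adjusted p = 0.120). The cap chaperone Psmd9 had 6.40, 6.04 and 6.63 in LSK, against 6.88, 6.87, 6.84 and 7.32 in GMP, a difference of -0.62 (SE 0.20, limma adjusted p = 0.0630). Psmc3ip differed by -0.52 (SE 0.15, limma adjusted p = 0.0511), Psmb6 by -0.15 (limma adjusted p = 0.609) and Psmb7 by -0.44 (limma adjusted p = 0.227).

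The number of calls depended on GMP 2 and on the processing. Without GMP 2, 8 genes fell in LSK, namely Psma7, Psmb2, Psmb5, Psmc3ip, Psmd1, Psmd7, Psmd8 and Psmd9, beside 25.5% of probe sets called. With GMP 2 kept, quantile normalization gave 8 lower genes, beside 24.4%, and the fit over 24 arrays with tag gave 7, beside 26.2%. Among tag A arrays alone, which keep GMP 2, 0 passed, beside 10.4% of probe sets. Monocyte and macrophage markers, 2 of 7 over 60 in LSK and 5 of 7 in GMP, with array means of 6.17 to 6.53 in LSK against 7.00 to 7.65 in GMP, moved with the comparison, and their part was not tested.

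In L-GMP, the leukemic cells with a GMP surface phenotype, no gene passed against GMP, and the spread was wide. Of 35 genes 24 were higher, with a median of 0.13 beside 0.03 over all probe sets, a median SE of 0.25, and 0 past the threshold, beside 4.86% of 11439 probe sets (limma). Signs differed between probe sets within 7 of the 14 genes with several tested. Unadjusted, 0 genes had a p under 0.05, beside 17.6% of probe sets, and the methods' t-test called 0. Psmd13, a lid subunit, had 9.13, 10.14 and 10.40 in L-GMP, against 9.46, 8.97, 9.51 and 9.57 in GMP. L-GMP 2 and 3 were above all GMP arrays and L-GMP 1 was within them, and the difference was 0.51 (SE 0.32, limma adjusted p = 0.468). Psmd9 differed by 0.44 (limma adjusted p = 0.363) and Psmd4, a ubiquitin receptor of the cap, by 0.36 (limma adjusted p = 0.468). Psmb5, Psmb6 and Psmb7 differed by -0.06, 0.15 and 0.17, with limma adjusted p of 0.916, 0.812 and 0.858.

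The positive median of this comparison came from L-GMP 2 and 3, was lowered by L-GMP 1 and was raised by the low array GMP 2. The average of the 34 genes was 10.07 over L-GMP and 9.97 over GMP. On single GMP arrays it was 10.04, 10.04 and 10.10, with 9.70 on GMP 2. Leaving out 1 array at a time moved the median of the tested genes between -0.02 and 0.39. L-GMP 1, the only L-GMP array of tag A, was below GMP 1 to 3 with a median of -0.23 over the tested genes. Without L-GMP 1 the median was 0.39 and 1 gene, Psmd13, rose, beside 10.4% of probe sets. Without both L-GMP 1 and GMP 2, Psmd13 and Psmd14 rose and Psmc4 fell, beside 19.9% of probe sets. L-GMP 1 also had the largest 3′ to 5′ differences, as given above, and the highest mean of the maturing neutrophil markers (11.63). Among these, Ltf stood at 11.39 on L-GMP 1, against 6.98 and 7.13 on L-GMP 2 and 3, and Lcn2 at 12.10, against 7.17 and 6.76. The part of these in the result was not tested. No GMP array carries tag C, so L-GMP 2 and 3 and their tag cannot be told apart.

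GFP cells differ from fresh GMP by infection, culture and the empty vector together. In GFP against GMP 24 of 35 genes were higher, with a median of 0.04 beside -0.04 over all probe sets, and 34 of 35 intervals lay within 2-fold. This direction rested on GMP 2, and without that array the median of the proteasome genes was -0.03. The average of the 34 genes was 10.02 over GFP, against 9.70 on GMP 2 and 10.04, 10.04 and 10.10 on the other GMP arrays. With all arrays kept none passed: 0 of 35, beside 15.7% of 11363 probe sets (limma), with 1 gene at an unadjusted p under 0.05, beside 29.8%. The methods' t-test called 1 gene, Psmc3ip. It had 7.51, 7.61 and 7.52 in GFP, against 7.94, 8.02, 7.97 and 7.96 in GMP. The spread within both groups was narrow and all GFP arrays were lower, with a difference of -0.42 (SE 0.13, limma adjusted p = 0.0533). Psmb5 differed by 0.30 (limma adjusted p = 0.203), Psmd8 by 0.43 (limma adjusted p = 0.260), Psmb6 by -0.23 and Psmb7 by 0.10. Without GMP 2, Psmc3ip, Psmd1 and Psmd7 fell in GFP, beside 36.0% of probe sets. Marker lists moved with this comparison. Monocyte and macrophage markers, 5 of 7 over 60 in both groups, had array means of 7.90 to 8.08 in GFP against 7.00 to 7.65 in GMP. Mast cell and basophil markers, 3 of 4 over 60 in both, had 5.68 to 5.78 in GFP against 6.79 to 7.81 in GMP. Erythroid and megakaryocyte markers, 2 of 5 over 60 in GFP and 4 of 5 in GMP, had 5.86 to 6.07 in GFP against 6.65 to 7.16 in GMP. Their part in the result was not tested. The comparisons of LSK, L-GMP and GFP with GMP share the same 4 GMP arrays.

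The proteasome genes also differed between tags. In a fit over all 24 arrays with a mean per group and the tag as a factor, added after the values were seen, tag B differed from tag A for 9 of 35 genes (8 higher, 1 lower), beside 20.4% of 12337 probe sets called (limma). Tag C differed from tag A for 17 of 35 (15 higher, 2 lower), beside 25.2%. The median difference of the proteasome genes was 0.19 for tag B, the same as over all probe sets, and 0.33 for tag C, against 0.14 over all. Tag C against tag A was 1.00 for Psmd1 (SE 0.22, limma adjusted p = 0.00451), 0.96 for Psmd7 (limma adjusted p = 0.041) and 0.84 for Psmb7 (limma adjusted p = 0.000929). The alpha subunits Psma3 and Psma4 were also higher in tag C, by 0.76 and 0.82.

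Some genes moved the other way with the tag, and their other probe sets did not follow. Psmb3 had 11.45 on the tag B array of MT2, against 12.20, 12.35 and 12.08 on its tag A arrays, and 11.05, 11.42 and 11.66 on the tag B arrays of AE, against 12.33 on AE 1. Over the fit Psmb3 was lower in tag B than in tag A, at -0.75 (limma adjusted p = 0.00338), while its second probe set differed by 0.01. Psmc4 was lower in tag C, at -0.67 (limma adjusted p = 0.00668), and its second probe set was at 0.25 (limma adjusted p = 0.29). Psmd6 was lower in tag C, at -0.48, and its second probe set was higher, at 0.80 (limma adjusted p of 0.00615 and 0.00455). For Psmb4 the chosen probe set was higher in tag C, at 0.37, and the other lower, at -0.75 (limma adjusted p of 0.0375 and 0.000759). Probe sets of the same gene thus disagreed in sign across the tags for Psmd6 and Psmb4, both past the threshold in opposite directions.

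**Figure D5:**
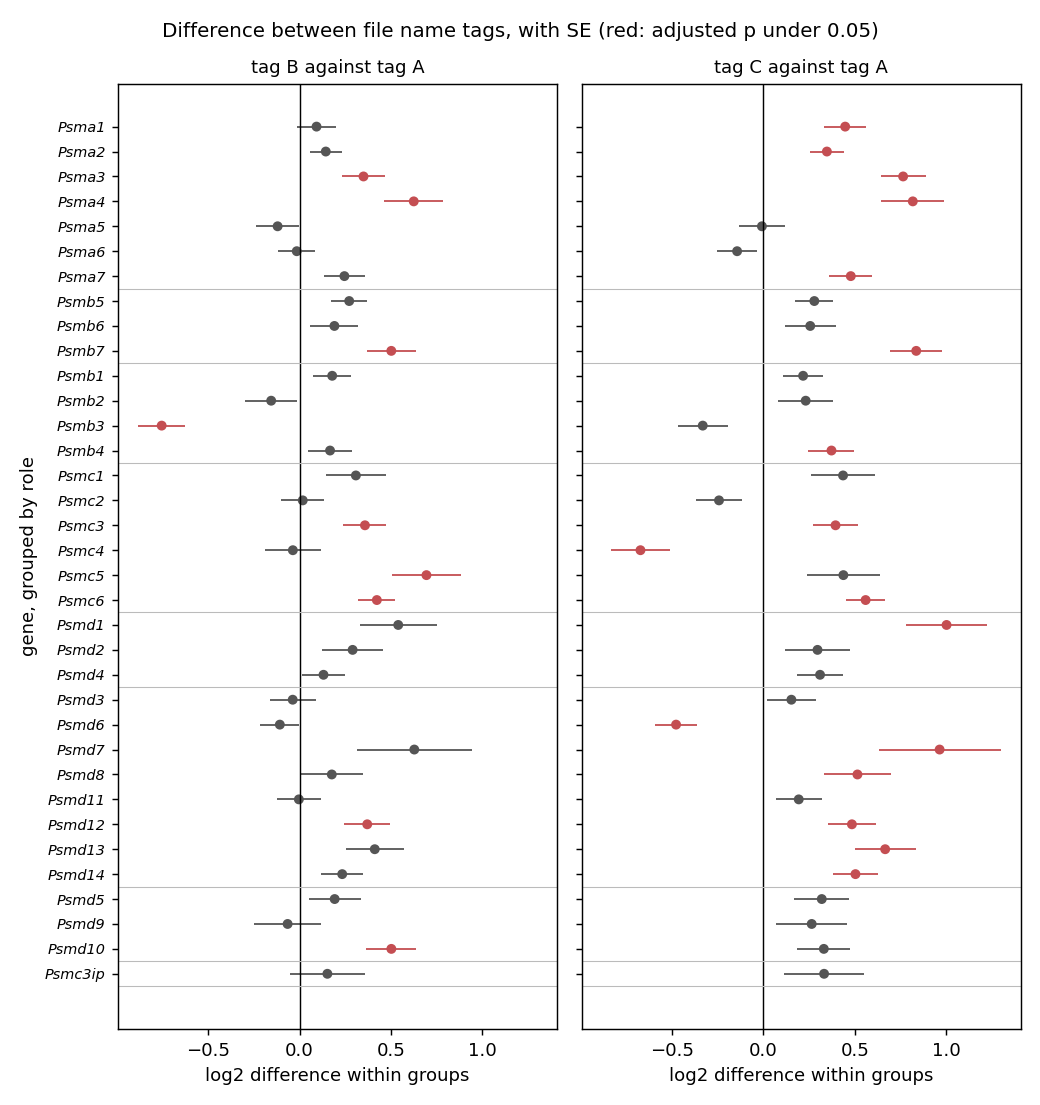
Log2 differences of the proteasome genes between tags, tag B against tag A and tag C against tag A, with standard errors, from the fit over 24 arrays. Red marks an adjusted p under 0.05, reached by 9 genes for tag B and 17 for tag C, most of them above 0.

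The other genes of the pathway were read from 6 lists covering the immunoproteasome, activators and the inhibitor, core assembly chaperones, cap-associated proteins, the Nrf1 axis, and the p97 segregase with shuttle factors. Of these genes 31 were measured by a single-symbol probe set. Nfe2l1 itself passed in no comparison, with differences between -0.18 (L-GMP against GMP) and 0.16 (MT2 against AE). In all oncogenes against GFP, NHA9 against GFP, NHA9 against AE and L-GMP against GMP, 0 pathway genes passed (limma).

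In MT2 against GFP, 4 of 31 pathway genes rose and 0 fell, a share near the 11.8% of all probe sets called. Psmg3, a chaperone that assembles the core, averaged 8.98 ± 0.10 in MT2 (n = 4) and 8.31 ± 0.21 in GFP (n = 3), a difference of 0.67 (limma adjusted p = 0.014). The nuclear activator subunit Psme3 differed by 0.45, the catalytic immunoproteasome subunit Psmb8 by 0.45 and Nfe2l2, which encodes the oxidative stress regulator Nrf2, by 0.58. In AE against GFP, where 11.0% of probe sets were called, 1 of 31 fell, Uchl5, a deubiquitinase that docks on the cap, with a difference of -1.05 (limma adjusted p = 0.046).

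In MT2 against AE, 6 of 31 rose and 1 fell, beside 28.5% of all probe sets called. Uchl5 averaged 10.18 ± 0.25 in MT2 and 8.91 ± 0.51 in AE (SD, n = 4 each), a difference of 1.27 (SE 0.25). Psmb8 was higher in MT2 by 0.65, Psme3 by 0.58, Nfe2l2 by 0.59, Mafg, a small Maf partner of the Nrf factors, by 0.69 and the shuttle factor Rad23b by 0.60. Ngly1, which deglycosylates Nrf1 for its activation, fell, at -0.86 (SE 0.21). In MT2 against NHA9 (7.52% of probe sets called), Nfe2l2 rose by 1.02 and Maff fell by 0.55. Maff lay near the limit of detection, with means of 5.76 in MT2 and 6.31 in NHA9 (limma adjusted p = 0.0441). In GFP against GMP (15.7% called), Nfe2l2 rose by 0.79, while the immunoproteasome subunit Psmb10 fell by 0.88 and the shuttle factor Ubqln4 by 0.81. In LSK against GMP (15.1% called), Sem1, a small lid protein, fell by 0.84, with 10.81 ± 0.36 in LSK (n = 3) and 11.65 ± 0.01 in GMP (SD, n = 4).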

How the data were processed

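Each of 24 mouse samples was hybridised to 1 array. The deposited log2 values come from GCRMA 2.4.1 on cell intensity files of MAS5, per the submitters' processing notes and, likewise, the design text of the series. The design text also says that the authors removed poor-quality arrays. Per the labels' protocols, all RNA was amplified together. GCRMA normalizes arrays to each other, so shifts common to all genes are removed, and the number of arrays limits the precision. Of 22690 probe sets, 64 controls were left out, and 20380 carried 1 gene symbol, 691 several and 1555 none; RefSeq matched 20351 and changed 0 symbols.

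From these values limma 3.58.1 in R 4.3.3 (lmFit, eBayes) was run over all probe sets with a linear value over 60 on at least 2 arrays of a compared group, with Benjamini-Hochberg adjustment at 0.05, over the arrays compared or, between oncogenes, over the 14 transduced arrays. The fits were tested on simulated data. Groups came from the sample titles. Named in each comparison were Psmb5, Psmb6 and Psmb7, up to 6 genes past the threshold in each direction, or where fewer than 3 passed, the 3 with the smallest adjusted p, and up to 4 called genes per pathway list and Nfe2l1; other genes were picked after their values were seen. Genes and lists were chosen with earlier results of these data known. Alternatives were quantile normalization, other filters, the mean of a gene's probe sets, limma-trend, a fit over all arrays, the methods' t-test (Welch's, named in the series design text, here with adjustment), the tag as a factor or tag A alone, a replicate block and leaving out arrays. The tag comparison, the fit over 24 arrays with tag, and leaving out GMP 2 with L-GMP 1 were added after seeing the data. The present calls of the authors' filter were not used here.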

Additional observations from a re-analysis of the deposited data

Results flagged for a closer look

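On 4 genes and on the average of the 34 proteasome genes, 1 GMP array lay far from the other 3, judged by its gap to the nearest array relative to the group's range. GMP 2 was low for Psmd1 (8.97), Psmd7 (5.77) and Psmd5 (7.70) and for the average (9.70), and GMP 4, the tag B array, was high for the chaperone Psmd9 (7.32). In all, 54 sets of 4 arrays were examined this way, and chance gives such a gap in about 1 of 20. GMP 2 also had large differences between 3′ and 5′ control probe sets (4.33 for Gapdh). LSK 3, with the highest average of its group, had 4.51 for Gapdh. The part of these differences was not tested.

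MT2 and AE differed from each other in the direct contrast for Psmc3ip (1.20), Psmd7 (0.95), Psmd14 (0.40) and Psmb5 (0.36), all higher in MT2, beside 28.5% of probe sets called. Of 25 other settings, Psmc3ip passed in 24, Psmd7 in 23, Psmd14 in 16 and Psmb5 in 10. MT2 and AE also hold different shares of the tags.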

How the results depend on the processing

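Counts of the 35 proteasome genes past the threshold stayed at 0 in every alternative for all oncogenes and for NHA9 against GFP, and no difference of a named gene past the threshold changed sign. In AE against GFP (1 gene, Psmd8 higher), quantile normalization gave 1, Psmc3ip lower in place of Psmd8, no filter and the methods' t-test each gave 0, limma-trend 2 (Psmb1 and Psmd8 higher), the fit over all 24 arrays 2 (Psmb1 higher and Psmc3ip lower), tag A arrays 9, tag as a factor 7 and the 24-array fit with tag 5. In MT2 against AE (4 genes), quantile normalization gave 7, no filter 2, the mean of a gene's probe sets 7, the fit over all 24 arrays 1, the methods' t-test 0, tag A arrays 19, tag as a factor 17 and the 24-array fit with tag 13. In MT2 against NHA9 (0 genes), quantile normalization, the filter on every array and limma-trend each gave 1, tag A arrays 10, tag as a factor 6 and the 24-array fit with tag 6. In NHA9 against AE (0) tag A arrays gave 6. In MT2 against GFP (0) the mean of a gene's probe sets gave 1. In LSK against GMP (0), quantile normalization gave 8, the filter on every array, the mean of probe sets, limma-trend and the fit over all 24 arrays each 1, the 24-array fit with tag 7, and leaving out GMP 2 with L-GMP 1 gave 8. In GFP against GMP (0), the filter on every array, the mean of probe sets and the methods' t-test each gave 1, the 24-array fit with tag 2, and leaving out GMP 2 gave 3. In L-GMP against GMP (0) leaving out GMP 2 with L-GMP 1 gave 3. The share of all probe sets called also moved with the setting. For all oncogenes against GFP it went from 0% to 0.997% with the methods' t-test. Counts given here and below without that share are therefore no result about the proteasome genes in particular. The cause was not tested.

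Leaving out 1 array at a time gave 0 to 1 genes in MT2 against GFP, 0 to 4 in AE against GFP, 0 to 4 in MT2 against NHA9, 2 to 11 in MT2 against AE, 0 to 1 in NHA9 against AE, 0 to 3 in GFP against GMP, 0 to 8 in LSK against GMP and 0 to 1 in L-GMP against GMP. Beside the arrays named with each result, leaving out MT2 2 or MT2 3 gave 1 gene in MT2 against GFP, AE 4 gave 2 in AE against GFP, AE 1 gave 2 in MT2 against NHA9, MT2 1, MT2 2 or AE 2 gave 2 in MT2 against AE, and NHA9 3 or AE 4 gave 1 in NHA9 against AE. Correlations of same-numbered deviations ran from -0.43 to 0.49 over 9 comparisons, and in none did every pair exceed 0.1. Same-numbered arrays often carry different tags, so these values cannot tell if replicate numbers pair the samples. With a replicate block MT2 against AE gave 6 genes (Psmb5, Psmc3ip, Psmd7, Psmd11 and Psmd14 higher, Psmd8 lower), AE against GFP 1 (Psmc3ip lower, not Psmd8) and NHA9 against AE 1 (Psmc3ip higher). Groups of 3 or 4 arrays, with tags spread unevenly over them, limit all of these calls.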
